A study of Mus musculus with 60 samples.

Results

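The dorsal midbrain is the roof of the embryonic mesencephalon, the tissue that grows into the tectum (the superior and inferior colliculi). Its transcriptome was compared with that of 4 other brain regions at embryonic stages E12.5 and E13.5 (days after conception). The 6 dorsal midbrain libraries were chosen by their tissue and stage labels, 3 at each stage, out of 60 libraries in all, and 30 libraries entered the comparison. The other 4 groups, also with 3 libraries per stage, were the alar plate, the ventral midbrain (labelled as floor and basal plate with the domains M3 to M7), the ventral forebrain and the ventral hindbrain. All 5 regions came from mouse embryos of the same genotype, TH-GFP, a reporter line in which green fluorescent protein marks cells that use the tyrosine hydroxylase promoter. The regions were cut out under a stereomicroscope with ultraviolet light, and whole tissue pieces, not sorted cells, were sequenced. No other allele or treatment is given for any group. The labels do not say at which level of the neural axis the alar plate piece was taken. They number the libraries 1 to 3 at E12.5 and 4 to 6 at E13.5 and leave it unsaid whether a library is a separate embryo or pool. The p-values therefore cover only how far these samples spread, which may be technical. The library descriptions of the 2 stages begin with different prefixes, whose meaning the labels do not give, so stage and what the prefix marks cannot be told apart.

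Along the dorsoventral axis of the neural tube, the roof plate secretes Wnt and bone morphogenetic proteins (BMPs), while the floor plate secretes Sonic hedgehog. Cells between them read both signals. Dorsal cells turn on transcription factors such as Pax3, Pax7 and the Zic family, and without hedgehog signal the Gli3 protein is cut into a repressor of hedgehog targets. In the dorsal midbrain, Wnt signalling is known to keep progenitors dividing, and these progenitors later give the GABAergic and glutamatergic neurons of the tectum. The floor plate and basal plate of the ventral midbrain give dopaminergic neurons, motor neurons and others.

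Expression is given in RPKM, read counts scaled by transcript length and by the library's total. Each contrast was the dorsal midbrain mean minus the mean of the 4 other region means within a stage, on the log2(RPKM + 1) scale, which understates the change of low genes. A gene was called higher or lower where limma's test gave an adjusted p (Benjamini-Hochberg, over all genes tested) under 0.05 and the log2 difference was at least 1. Each difference below is followed by its standard error, and dorsal midbrain values stand in the order of the replicate numbers. In whole tissue, fewer cells of a type and less RNA per cell cannot be told apart.

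Libraries held 8671033 to 13098974 reads at E12.5 and 4973179 to 23581725 at E13.5. At E12.5 the third dorsal midbrain library stood apart. Its mean correlation with its own group (log2 RPKM + 1, across genes) was 0.971, against 0.982 and 0.984 for the other 2, and its closest other group was the ventral forebrain (0.964), where theirs was the alar plate. It held Tcf7l2, a Wnt effector that marks thalamus and pretectum, at 393 RPKM, against 23.7 and 19.6 in its partners. Pax6 read 46.7 against 1.88 and 0.202, Gbx2 read 14.7 against 0.0807 and 0.115, and Nr4a2 read 33.9 against 0.86 and 0.814. Ccnd1 read 53.3 against 295 and 311. The third alar plate library also stood apart, with a correlation of 0.928 to its group and Ttr, a choroid plexus gene, at 94.4 RPKM. The chi-square of counts per feature was 3.56 between the first 2 dorsal midbrain libraries and 31.09 and 26.84 with the third. Within the alar plate it was 93.24 or more with the third library. The lowest of all pairs within a group was 2.91, so no such pair was 1 library sequenced again. Pairs across groups were not compared, and this value does not tell whether libraries came from the same RNA or embryo. At E13.5 the 3 dorsal midbrain libraries correlated with their group at 0.993 to 0.994. The chi-square at that stage was 6.21 to 9.3 within the dorsal midbrain. It reached 29.87 within the alar plate and 24.19 within the ventral hindbrain, and all these libraries were kept. The first ventral forebrain library at E12.5 also lay away from its group, with a correlation of 0.964 (chi-square 21.87 and 29.64, against 5.35 between its partners), and was kept. E12.5 results that change are also given without the 2 libraries that stand apart, a choice made after the data were seen.

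The dissection was checked against 4 transcription factors of dorsal neural tissue, and all 4 were higher at both stages. Pax3 and Pax7, paired-box factors of the dorsal neural tube, were the clearest. Pax3 read 44.0, 41.8 and 32.3 RPKM at E12.5, against 0.0448 to 17.0 (median 2.93) in the other 12 libraries, a log2 difference of 3.39 ± 0.35 (adjusted p = 8e-05). At E13.5 its values were 37.7, 42.5 and 37.8 against 0 to 14.7 (median 2.84), a difference of 3.63 ± 0.48 (adjusted p = 2.73e-05). No other library reached the dorsal midbrain range of Pax3 at either stage. Pax7 read 38.2, 42.2 and 19.1 at E12.5 against 0.0527 to 20.4 (median 3.88), a difference of 2.86 ± 0.55 (adjusted p = 0.00309). It read 52.2, 43.8 and 41.4 at E13.5 against 0.898 to 20.3, a difference of 3.08 ± 0.42 (adjusted p = 3.67e-05). The groups overlapped for Pax7 at E12.5, through the third dorsal midbrain library and an alar plate library, and not at E13.5.

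Tfap2b, an AP-2 factor of tectal neurons, read 98.7, 107 and 56.8 RPKM at E12.5 and 165, 134 and 120 at E13.5. Its medians elsewhere were 4.46 and 6.22, and the differences were 3.30 ± 0.73 (adjusted p = 0.00566) and 4.12 ± 0.70 (adjusted p = 0.000216). An alar plate library reached 156 at E12.5 and another 120 at E13.5, so Tfap2b did not separate the dorsal midbrain from the alar plate. Lhx2, a LIM homeodomain factor, read 102, 107 and 60.8 at E12.5, below a ventral forebrain library at 176, with a difference of 2.57 ± 0.47 (adjusted p = 0.00246). It read 109, 111 and 123 at E13.5 against at most 105 (an alar plate library), with a difference of 2.84 ± 0.77 (adjusted p = 0.00633). Of the 4 markers, only Pax3 stood above all 12 other libraries at both stages.

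**Figure D1:**
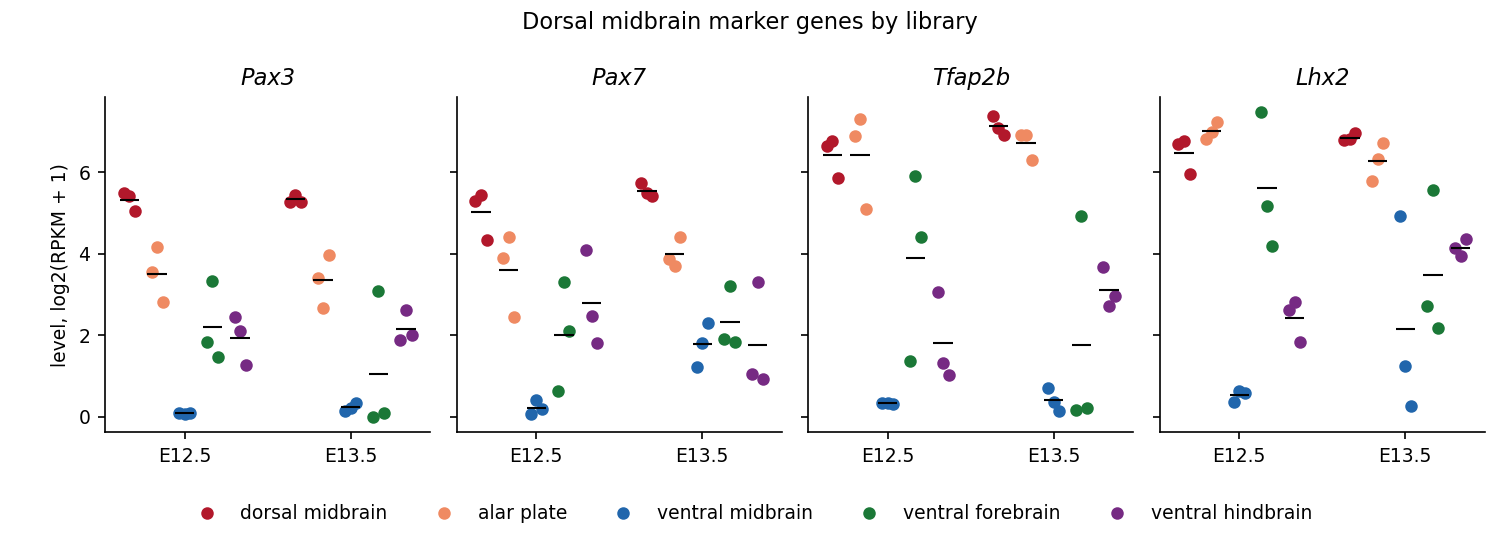
Level of Pax3, Pax7, Tfap2b and Lhx2 (vertical axes, log2(RPKM + 1)) in each library of the 5 regions at E12.5 and E13.5; points are libraries and short bars are group means. On the linear scale the dorsal midbrain libraries lie between 19.1 and 165 RPKM, and the alar plate and ventral forebrain overlap them for Tfap2b and Lhx2.

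**Figure D2:**
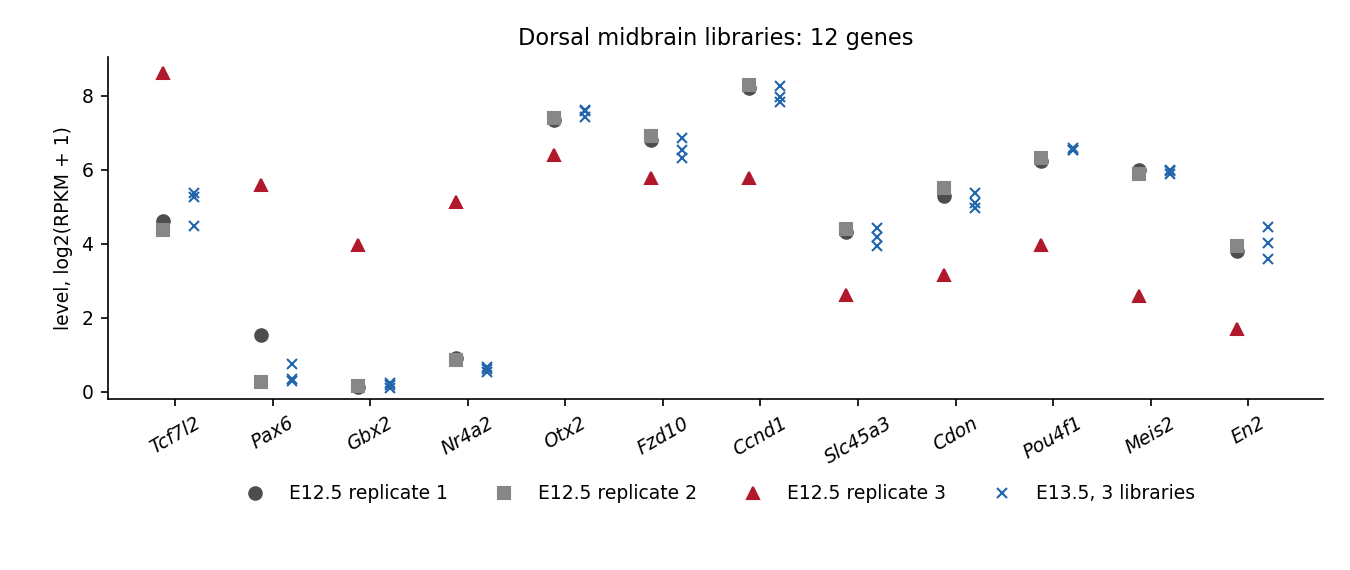
Level, log2(RPKM + 1), of 12 genes in the 3 dorsal midbrain libraries at E12.5 (replicates 1 to 3, a symbol each) and the 3 at E13.5 (crosses), chosen to show where the third E12.5 library stands apart. Tcf7l2 is at 393 RPKM in that library and at 19.6 to 40.3 in the other 5.

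Across all genes, 406 of 13733 tested were higher in the dorsal midbrain at E12.5 (2.96%) and 315 were lower (2.29%). At E13.5, 479 of 13851 were higher (3.46%) and 631 lower (4.56%). Of the genes higher at E12.5, 335 were also higher at E13.5, which is 82.5% of the E12.5 calls and 69.9% of the E13.5 calls. For the genes that were lower, 289 were shared, 91.7% and 45.8% of the calls, and no gene was called in opposite directions. Without the 2 libraries that stand apart the E12.5 counts were 640 higher (4.66%) and 583 lower (4.24%), of 13742 tested, and they held 395 of the 406 and 310 of the 315 original calls. The E12.5 counts depended on single libraries: they were 199 and 190 without the first dorsal midbrain library, 236 higher without the second, 619 and 531 without the third, and 450 and 374 without the first ventral forebrain library. The median log2 difference over all genes tested was 0.04 at E12.5 and 0.01 at E13.5, so the lists below can be read against a centre near 0. Counts of list members called are to be read against the shares over all genes, 2.96% higher and 2.29% lower at E12.5 and 3.46% and 4.56% at E13.5. A single call in a list with 24 or more tested members is near these shares. Several E12.5 calls described below ended when either the first or the second dorsal midbrain library was left out. They are written as lost without the first or second library. For some, such as Aldoc (-1.65 and -1.64), the difference stayed and the adjusted p rose over 0.05 (0.0569 and 0.0528, limma). For others, such as Evc (0.97 and 0.93), the difference fell under the size threshold. With limma's voom on the recovered reads, the E12.5 calls of En1, Foxa2, Otp, Pax5, Pitx3, C1ql1 and Lmx1a and the E13.5 call of Pax8 were lost, with the same direction and adjusted p of 0.0828 to 0.356. Mcm7 at E12.5 fell under the size threshold with it (0.96), and voom added calls of Emx2, Fzd9, Isl2, Neurod6, Pax8 and Rspo3 at E12.5 and of Gli1 at E13.5. Of the genes named below and not called at E12.5, 13 were called without the 2 libraries that stand apart: Pou4f2, Rspo3, Ctnnb1, Efna5, Isl2, Smo and Sncg higher, and Dkk3, Neurod6, Nr4a2, Pax6, Robo3 and Wnt8b lower. Lmx1a and Sox14 lost their E12.5 calls in that fit. For the genes brought in by the naming rule, among them Fzd10, Pax3, Tal2, Zic5, Rspo1, Gas1, Gli3, Sp5, Shh and Nkx2-2, the rule itself required that no other library overlap the dorsal midbrain at either stage, so that separation is a description and no result.

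**Figure D3:**
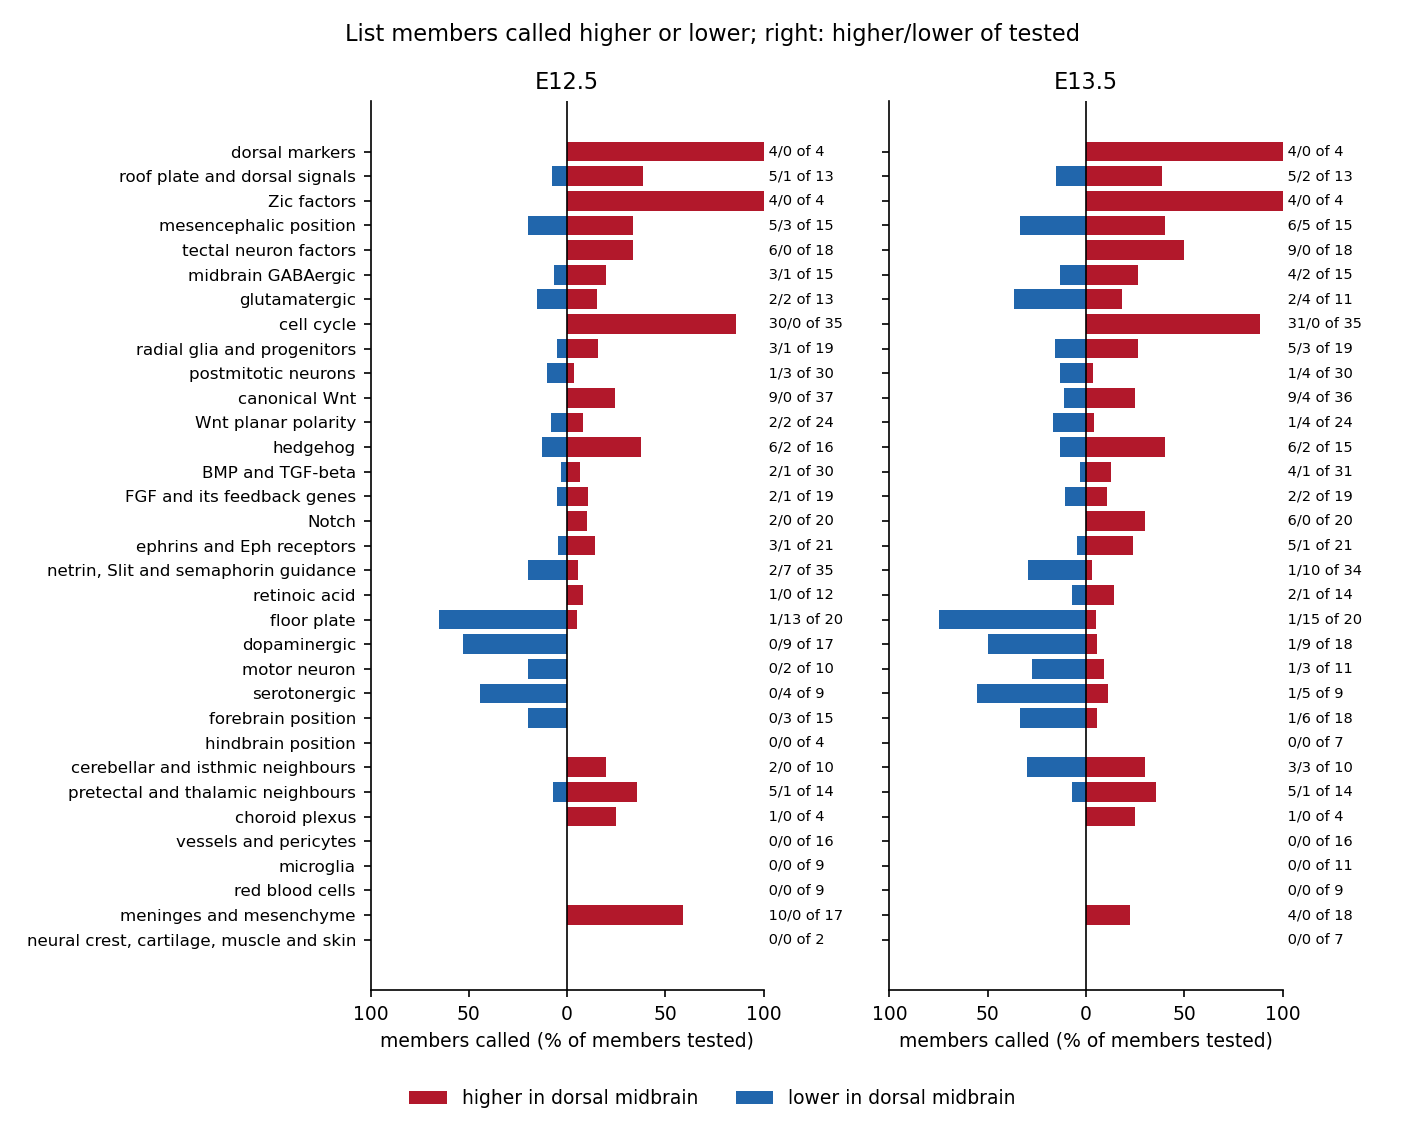
Percent of the tested members of each gene list that were called higher (red, to the right) or lower (blue, to the left) in the dorsal midbrain at E12.5 and E13.5, with the numbers higher and lower of those tested printed at the right. Beside the 4 dorsal markers, the longest bars are those of the 4 Zic genes (all higher at both stages), the cell cycle (30 and 31 of 35 higher) and the floor plate (13 and 15 of 20 lower).

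Zic1, Zic2, Zic4 and Zic5, zinc-finger factors of dorsal neural tissue, were higher at both stages, with median log2 differences over these 4 genes of 3.37 and 3.13. Zic1 read 97.5, 125 and 152 at E12.5 and 99.9, 151 and 104 at E13.5, with differences of 4.01 ± 0.70 and 3.77 ± 0.67. An alar plate library at E12.5 reached 105 RPKM of Zic1, which is inside the dorsal midbrain range, while the highest other library at E13.5 was at 34.7. Zic5 differed by 2.54 ± 0.40 and 2.29 ± 0.33 from a median of 0.158 and 0.194 RPKM elsewhere, and no other library reached it. Zic2 differed by 3.17 ± 0.79 at E12.5, where its call was lost without the first or second library (adjusted p = 0.0513 and 0.0509), and by 2.78 ± 0.46 at E13.5. Zic4 differed by 3.57 ± 0.66 and 3.48 ± 0.50. Zic1 and Zic4 overlap on opposite strands of chromosome 9, and without knowing whether the counting used strand their reads cannot be told apart.

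Zic1 is also used as a marker of the meninges, and meningeal genes were higher in the dorsal midbrain at E12.5 (below). Col1a1, a collagen of mesenchyme, was at 38.8 RPKM in an alar plate library at E12.5 whose Zic1 was 10.9. At E13.5 it was at 53.2 in an alar plate library with Zic1 at 5.49, and at 53.1 in a ventral midbrain library with Zic1 at 15.3. These libraries were picked after their values were seen, and the part of meningeal tissue in the Zic1 values was not tested.

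Of 15 tested genes of mesencephalic position, 5 were higher and 3 lower at E12.5, and 6 were higher and 5 lower at E13.5 (3 lower with voom). The higher genes included Otx2, a homeodomain factor needed for forebrain and midbrain. Otx2 read 162, 168 and 83.3 RPKM at E12.5 against 4.24 to 86.1, a difference of 2.06 ± 0.25 (adjusted p = 0.000222). It read 192, 194 and 171 at E13.5 against 1.42 to 89.0, a difference of 3.04 ± 0.24 (adjusted p = 5.7e-07). The third E12.5 library lay just below the highest alar plate library, and at E13.5 the groups were apart. Otx2 overlaps an antisense transcript, Otx2os1, on the other strand. Dmbx1, a homeobox factor of the midbrain, was at 12, 13.0 and 6.28 RPKM at E12.5 against at most 5.25, and at 12.6, 15.2 and 12.9 at E13.5 against at most 4.44. Its differences were 2.50 ± 0.22 and 2.72 ± 0.28, and it was higher than in each of the 4 regions taken singly at both stages. Mab21l2, a factor of the developing tectum and eye, differed by 2.40 ± 0.35 and 2.46 ± 0.71, with a ventral hindbrain library at 129 RPKM at E13.5 above all 3 dorsal midbrain libraries.

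Several genes of the isthmus, the boundary of midbrain and hindbrain, were lower. Pax5 was listed at 0 in all 3 dorsal midbrain libraries at E12.5 and at 0.0698, 0.0648 and 0 RPKM at E13.5, with medians elsewhere of 4.25 and 6.31. The fitted difference at E13.5 was -2.43 ± 0.20 (adjusted p = 5.92e-07), and the E12.5 call was lost without the first or second library (adjusted p = 0.087 and 0.0792). Pax8 was also listed at 0 in the 3 libraries at E12.5, where its fitted difference was under the size threshold, and was lower at E13.5 (-1.85 ± 0.48). En1, an Engrailed factor of isthmus, midbrain and dopaminergic neurons, averaged 0.605 ± 0.198 RPKM (SD, n = 3) in the dorsal midbrain and 73.3 ± 5.75 in the ventral midbrain at E12.5. The averages at E13.5 were 1.43 ± 1.05 and 76.4 ± 18.4. En2 read 13.0, 14.4 and 2.21 at E12.5 and 15.2, 10.9 and 20.9 at E13.5, inside the range of the other regions, and was not called.

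Among the genes that separated the dorsal midbrain most widely, chosen by the rule given under the processing, were further factors of progenitors and young neurons. Gsx1, a homeobox factor of dorsal progenitors, read 19.3, 21.2 and 10.9 RPKM at E12.5 (difference 2.66 ± 0.21) and 19.4, 23.3 and 20.7 at E13.5 (2.86 ± 0.36). The highest other library, of the alar plate, was at 10.9 and 10.4, level with the third dorsal midbrain library at E12.5 to 3 digits. Nr2e1, an orphan nuclear receptor of neural progenitors, read 24.9, 22.2 and 18.3 against at most 14.51 at E12.5, and 17.5, 24.5 and 20.8 against at most 6.27 at E13.5, with differences of 2.98 ± 0.34 and 3.05 ± 0.29. Slc45a3, a solute carrier, read 18.8, 20.1 and 5.15 at E12.5 and 14.2, 20.5 and 17.1 at E13.5, with medians elsewhere of 0.178 and 0.245 RPKM. Its differences were 2.99 ± 0.29 and 3.63 ± 0.20. Cep112, which encodes a centrosomal protein, differed by 1.94 ± 0.38 and 2.09 ± 0.15. The naming rule required the 3 dorsal midbrain libraries of these 4 genes to lie above the 12 others, as they did for 5.63% of all genes tested at E12.5 and 17.5% at E13.5.

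Factors of tectal neurons rose in part of their list: 6 of 18 were higher at E12.5 and 9 of 18 at E13.5, none was lower, and the median differences were 0.72 and 0.97. Pou4f1 (Brn3a), a POU factor of tectal glutamatergic neurons, read 74.3, 78.4 and 14.6 RPKM at E12.5 against 0.912 to 77.5, and its call (1.65 ± 0.47, adjusted p = 0.0187) was lost without the first or second library (adjusted p = 0.148 and 0.142). At E13.5 it read 92.0, 90.8 and 96.0 against at most 55.9, a difference of 3.33 ± 0.32 (adjusted p = 2.17e-06). Leaving out the 2 libraries that stand apart gave 2.34 at E12.5. Barhl2, a homeobox factor, differed by 2.67 ± 0.24 and 2.71 ± 0.26, and read 50.3, 57.7 and 30.7 and then 59.7, 62.2 and 65.1 RPKM. An alar plate library (55.8) overlapped it at E12.5, and none did at E13.5. Pou4f2, a close relative of Pou4f1, read 11, 15.1 and 1.31 at E12.5 and was not called, while without the 2 libraries that stand apart it was higher by 2.0 (adjusted p = 0.00282). It read 22.5, 16.6 and 20.2 at E13.5 and was higher by 2.49 ± 0.18. Tfap2d and Lhx9 were higher at both stages, by 2.61 ± 0.45 and 2.22 ± 0.31 at E12.5 and by 3.16 ± 0.62 and 3.06 ± 0.57 at E13.5, with alar plate libraries inside the dorsal midbrain range for both genes. Lhx1 and Lhx5, which mark GABAergic and other interneurons in several regions, differed by 0.18 ± 0.15 and -0.14 ± 0.17 at E13.5 and were not called.

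The GABAergic list was mixed, with 3 members higher and 1 lower of 15 at E12.5, and 4 higher and 2 lower at E13.5, where voom gave 7 and 1. Leaving out the 2 libraries that stand apart gave 2 higher and 2 lower at E12.5. Transcription factors of the list carried the higher calls: Tal2, Helt and Sox14 at both stages, and Gata2 at E13.5. Those of Sox14 and Gata2 were lost when some single libraries were left out (below). Tal2, a basic helix-loop-helix factor needed for midbrain GABAergic neurons, read 192, 189 and 139 RPKM at E12.5 against 2.71 to 105 (median 18.03), a difference of 3.12 ± 0.35 (adjusted p = 0.000163). At E13.5 it read 184, 209 and 177 against 0.526 to 90.9 (median 7.77), a difference of 4.21 ± 0.60 (adjusted p = 5.34e-05). The alar plate held the highest other Tal2 values, and no library overlapped the dorsal midbrain. Helt, a selector gene of midbrain GABAergic fate, differed by 1.85 ± 0.26 and 2.89 ± 0.23. Gad1, which makes GABA, was not called. It read 12.8, 15.3 and 18.6 at E12.5 and 26.5, 19.8 and 22.8 at E13.5, with medians elsewhere of 22.7 and 23.3.

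For glutamatergic neurons, 2 of 13 list members were higher and 2 lower at E12.5, and 2 of 11 higher and 4 lower at E13.5. The 2 higher genes were Pou4f1 and Neurog1, a proneural factor (1.20 ± 0.32, lost without the first or second library, and 1.51 ± 0.38). Without the 2 libraries that stand apart, 2 of 11 were higher and 4 lower at E12.5. Slc17a6, the vesicular glutamate transporter of the brain stem and midbrain, read 30.4, 28.2 and 34.1 RPKM at E12.5 and 35.8, 29.3 and 34.5 at E13.5. Its differences were 0.01 ± 0.17 and 0.05 ± 0.14. Slc17a8, the related transporter VGLUT3, averaged 0.0838 ± 0.00825 RPKM (SD, n = 3) in the dorsal midbrain at E12.5, against 12 ± 2.04 in the ventral midbrain and 23.9 ± 3.95 in the ventral hindbrain. Its differences were -2.42 ± 0.22 and -1.95 ± 0.12. That every other library had more of it was required by the naming rule. Neurod6 was lower at E13.5 (-2.76 ± 0.34). It read 0.0399, 0.0377 and 6.56 at E12.5, where only the library that stands apart held it above 1 RPKM.

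The canonical Wnt genes that were higher included ligands, a receptor, a nuclear partner and targets. Of the list, 9 of 37 tested were higher and none lower at E12.5, and 9 of 36 were higher and 4 lower at E13.5. Without the 2 libraries that stand apart the E12.5 counts were 11 higher and 2 lower. Among the ligands, Wnt1 read 6.51, 9.94 and 5.84 RPKM at E12.5 and 5.06, 11.8 and 6.53 at E13.5. The ventral midbrain was the only other region with a comparable level, at 5.63 ± 0.995 and 3.26 ± 1.5 RPKM (SD, n = 3), and its highest library (6.72) overlapped the dorsal midbrain at E12.5. The Wnt1 differences were 2.26 ± 0.14 (adjusted p = 2.39e-06) and 2.27 ± 0.21 (adjusted p = 1.63e-06). Wnt3 differed by 2.15 ± 0.44 and 2.42 ± 0.14. Rspo1, a secreted protein that strengthens Wnt signals at the receptor and is counted here with the roof plate genes, read 8.68, 13.2 and 8.99 and then 6.80, 15.2 and 11, with medians elsewhere of 0.145 and 0.114 RPKM. Its differences were 2.92 ± 0.50 and 3.10 ± 0.31, and no other library overlapped.

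The receptor Fzd10, a Frizzled, had the largest change in the list. It read 110, 119 and 54.3 RPKM at E12.5 against 0.639 to 21.8 (median 5.63), a difference of 3.85 ± 0.42 (adjusted p = 0.000131). At E13.5 it read 78.0, 116 and 92.2 against 0.487 to 19.2 (median 4.499), a difference of 4.14 ± 0.32 (adjusted p = 4.43e-07). By region, Fzd10 averaged 94.7 ± 35.2 RPKM (SD, n = 3) in the dorsal midbrain at E12.5, 16.5 ± 6.45 in the alar plate, 9.70 ± 9.51 in the ventral forebrain, 5.59 ± 0.123 in the ventral midbrain and 0.816 ± 0.264 in the ventral hindbrain. The dorsal midbrain was higher than each of these at both stages. Ctnnb1, which encodes beta-catenin, the carrier of the signal to the nucleus, read 660, 687 and 493 RPKM against at most 479 at E12.5, where its difference of 0.90 ± 0.13 was under the size threshold. It read 585, 682 and 586 at E13.5 against at most 363, a difference of 1.11 ± 0.07 (adjusted p = 7.84e-08).

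Of the nuclear partners, Lef1 was higher by 2.29 ± 0.26 and 2.83 ± 0.15, while Tcf7l2 was not called and its dorsal midbrain values at E12.5 hung on the third library. Axin2, Nkd1 and Dkk1, among the pathway's targets and inhibitors, were higher. Axin2, a direct target that limits the signal, read 39.8, 46.0 and 31.2 RPKM at E12.5 against at most 20.2, and 35.8, 46.6 and 37.8 at E13.5 against at most 12.8, with differences of 1.88 ± 0.21 (adjusted p = 0.000159) and 1.98 ± 0.11 (adjusted p = 4.92e-08). Axin2 was above every other library at both stages. Nkd1, another inhibitor, differed by 1.27 ± 0.32 (lost without the first or second library) and 1.47 ± 0.13, and Dkk1, a secreted antagonist, by 1.25 ± 0.21 and 1.5 ± 0.14. At E13.5 the 4 lower members were Wnt8b, Fzd9, Dkk3 and Frzb. Fzd9 and Frzb lay at the size threshold. Leaving out any of 6 libraries for Fzd9, or a ventral forebrain library for Frzb, put their differences just under it (-0.98 at the smallest). Their adjusted p in these limma fits was 0.000192 or less. Wnt8b was highest in the ventral forebrain (65.6 RPKM in 1 library) and was at 0.236, 0.0488 and 0.0768 in the dorsal midbrain.

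Sp5, a zinc-finger factor known as a direct target of the canonical pathway, read 10.3, 15.5 and 4.68 RPKM at E12.5 against 0.0809 to 3.86, a difference of 2.05 ± 0.28 (adjusted p = 0.000548). At E13.5 it read 14.7, 19.2 and 18.4 against 0.021 to 7.06, a difference of 2.55 ± 0.15 (adjusted p = 5.33e-08). No other library overlapped it. Its promoter is printed because it was the only promoter of the 30 matched canonical Wnt genes that held the TCF/LEF motif searched, CTTTGAT on either strand, in the 250 bases before the start. The shares that follow are over whole windows, which run on past the start site beyond those 250 bases. That motif was in 3.73% of all 32851 promoter windows of the RefSeq table (build GRCm38.p6). Counted by gene symbol, with a match in any window of the gene, it was in 4.29% of all 27025 symbols. It was in 2.89% of the genes tested at both stages. Of the genes higher at both stages 1.98% held it (5 of 252 matched), and of those lower 4.95% (10 of 202). The printed 250 bases of Sp5 lie at chr2:70474673-70474922 on the plus strand, and the match, in capitals, starts 104 bases before the start site.
Sp5: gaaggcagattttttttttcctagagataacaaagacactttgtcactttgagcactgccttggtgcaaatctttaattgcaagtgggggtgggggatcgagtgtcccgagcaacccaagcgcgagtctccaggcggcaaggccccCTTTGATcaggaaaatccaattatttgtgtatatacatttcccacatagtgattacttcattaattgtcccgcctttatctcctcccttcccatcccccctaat
A match describes letters and does not show binding.

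**Figure D4:**
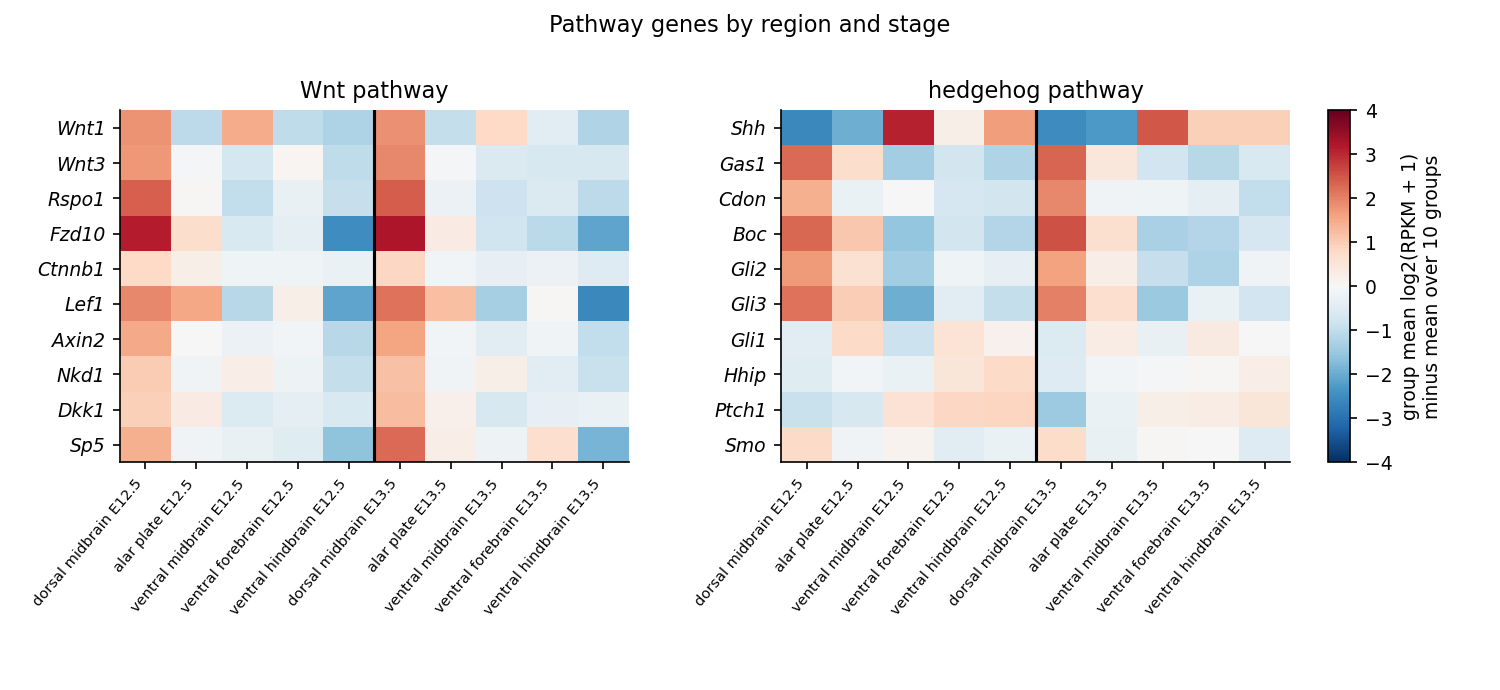
Group mean log2(RPKM + 1) minus the gene's mean over the 10 groups, for Wnt pathway genes (left) and hedgehog pathway genes (right) in the 5 regions at E12.5 and E13.5; red is above and blue below the gene's mean. Wnt1 is high in the dorsal and the ventral midbrain, Fzd10 mainly in the dorsal midbrain, and Shh is highest in the ventral midbrain.

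Hedgehog pathway genes split by role. Of 16 tested at E12.5 and 15 at E13.5, 6 were higher and 2 lower at both stages. The ligand Shh read 0.0649, 0.0307 and 0.0651 RPKM at E12.5 and 0.132, 0.0307 and 0.121 at E13.5. Its medians elsewhere were 14.51 and 12.2, and the ventral midbrain averaged 52.6 ± 2.24 and 34.8 ± 4.92 RPKM (SD, n = 3). The differences were -3.34 ± 0.37 (adjusted p = 0.000144) and -3.04 ± 0.18 (adjusted p = 6.54e-08). Alar plate libraries came closest to the dorsal midbrain, at 0.0908 RPKM or more. Ptch1, the receptor that hedgehog signalling itself turns on, was lower as well. It read 6.44, 5.34 and 14.7 at E12.5 (-1.29 ± 0.30, lost without the first or second library) and 6.47, 4.55 and 4.36 at E13.5 against 11.47 to 25.2 (-1.64 ± 0.13). Gli1, an activator and target of the pathway, differed by -0.57 ± 0.34 and -0.64 ± 0.16 and stayed under the size threshold.

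The co-receptors and the other Gli factors were higher. Gas1, a cell-surface protein that binds Shh, read 29.0, 33.7 and 16.1 RPKM at E12.5 against at most 8.76, and 21.5, 31.5 and 27.0 at E13.5 against at most 8.97, with differences of 2.92 ± 0.25 (adjusted p = 1.83e-05) and 2.84 ± 0.37 (adjusted p = 2.49e-05). It was higher than in each of the 4 regions at both stages. Boc differed by 2.88 ± 0.33 and 3.19 ± 0.27. Cdon, of the same family, read 38.0 and 44.5 in the first 2 libraries at E12.5 and 7.84 in the third, inside the range of the others. Its difference was 1.84 ± 0.39 at E12.5 (lost without the first or second library), 2.48 without the 2 libraries that stand apart, and 2.33 ± 0.17 at E13.5. Gli3, which acts mainly as a repressor, read 28.1, 25.2 and 18.6 RPKM at E12.5 and 19.5, 23.1 and 19.9 at E13.5. It averaged 0.395 ± 0.0511 RPKM (SD, n = 3) in the ventral midbrain and 10.7 ± 5.49 in the alar plate at E12.5, and its differences were 2.77 ± 0.30 and 2.47 ± 0.21. No other library reached the dorsal midbrain level of Gli3. Gli2 differed by 2.04 ± 0.30 and 2.13 ± 0.22, and Evc by 1.06 ± 0.18 (lost without the first or second library) and 1.08 ± 0.14. Smo, the signal transducer, differed by 0.94 ± 0.15 and 0.93 ± 0.14, just under the size threshold.

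Floor plate genes were the widest gap in the other direction: 13 of 20 were lower at E12.5 and 15 of 20 at E13.5, with median log2 differences of -2.12 and -2.04. The list summed to 59.6 to 68.2 RPKM in the dorsal midbrain at E12.5 and to 1423 to 1558 in the ventral midbrain, and at E13.5 to 54.6 to 70.9 and 930 to 1299. Sulf1, a sulfatase that edits heparan sulfate and Shh signalling, read 0.507, 0.257 and 0.871 RPKM at E12.5 against 1.13 to 349 (median 114), a difference of -5.05 ± 0.61 (adjusted p = 0.000261). At E13.5 it read 0.460, 0.256 and 0.336 against 8.47 to 265, a difference of -5.36 ± 0.20 (adjusted p = 2.15e-09). Spon1, the floor plate protein F-spondin, differed by -4.77 ± 0.50 and -5.09 ± 0.19, and Ntn1, the netrin that attracts commissural axons, by -3.88 ± 0.31 and -4.27 ± 0.20. Ntn1 read 3.21, 2.21 and 7.13 and then 4.0, 1.41 and 2.71 in the dorsal midbrain. That every other library had more of these 3 genes was required by the naming rule, and held for 2.44% and 16.1% of all genes tested.

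Nkx2-2, a homeodomain factor of the ventral neural tube that hedgehog signalling induces, was listed at 0 in 2 dorsal midbrain libraries of each stage and at 0.318 and 0.0358 RPKM in the remaining ones. The other libraries held 4.07 to 23.1 RPKM of it at E12.5 and 1.06 to 16.5 at E13.5, and the differences were -3.04 ± 0.16 (adjusted p = 1.03e-06) and -2.90 ± 0.42 (adjusted p = 5.45e-05). It was lower than in each of the 4 regions, the alar plate included, at both stages. It overlaps an antisense transcript, Nkx2-2os, on the other strand. The forkhead factors Foxa1 and Foxa2 differed by -3.20 ± 0.48 and -3.02 ± 0.62 at E12.5 and by -3.46 ± 0.21 and -2.73 ± 0.23 at E13.5. The only member that was higher was Msx1, a target of BMP signalling that the roof plate and the ventral midbrain share. It averaged 7.14 ± 0.671 RPKM (SD, n = 3) in the dorsal and 12.7 ± 1.19 in the ventral midbrain at E12.5, with differences of 1.48 ± 0.24 and 1.17 ± 0.23 against the mean of the regions.

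Genes of dopaminergic neurons followed: 9 of 17 were lower and none higher at E12.5, and 9 of 18 were lower and 1 higher at E13.5. The number lower was 5 and 14 with voom, and 10 at E12.5, with 1 higher, without the 2 libraries that stand apart. Th, tyrosine hydroxylase, read 0.629, 0.595 and 0.825 RPKM at E12.5 and 1.03, 0.457 and 0.431 at E13.5. The highest ventral midbrain libraries were at 85.04 and 98.1, and the differences were -2.23 ± 0.19 (adjusted p = 2.16e-05) and -2.26 ± 0.35 (adjusted p = 9.24e-05). Pitx3, a factor of midbrain dopaminergic neurons, was listed at 0 in 2 of the 3 libraries of each stage. Nr4a2 was at 0.530, 0.578 and 0.445 at E13.5 and lower (-3.98 ± 0.26). At E12.5 the third library held 33.9 RPKM of Nr4a2 and the gene was not called (-1.99 ± 0.80, adjusted p = 0.0755), while without the 2 libraries that stand apart it differed by -3.40 (adjusted p = 0.00123). The single higher member was Sncg, gamma-synuclein (1.19 ± 0.43 at E13.5), whose call was lost without the fifth or sixth dorsal midbrain library (adjusted p = 0.101 and 0.104). Of 9 serotonergic genes, 4 were lower at E12.5, and 5 lower and 1 higher (Gata2) at E13.5. The Gata2 call was lost without any of the 3 dorsal midbrain libraries and in 3 other fits without a library (adjusted p 0.0511 to 0.108). Fev, a factor of serotonergic neurons, differed by -1.83 ± 0.14 and -1.78 ± 0.15, and Slc6a4, the serotonin transporter, by -2.11 ± 0.15 and -2.03 ± 0.15. Of the motor neuron list, 2 of 10 were lower at E12.5, and 3 of 11 lower and 1 higher (Isl2, 1.41 ± 0.25) at E13.5; without the 2 libraries that stand apart 2 were higher and 2 lower at E12.5. Lhx4, a LIM factor of motor neurons, was listed at 0 in all 6 dorsal midbrain libraries, against medians of 2.78 and 3.15 RPKM elsewhere.

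Roof plate genes were higher in part: 5 of 13 tested were higher and 1 lower at E12.5, and 5 higher and 2 lower at E13.5. With voom 8 were higher and none lower at E12.5. Gdf7, a BMP-family ligand that marks the roof plate, read 2.16, 3.86 and 1.92 RPKM at E12.5, where its highest value elsewhere was 0.237, and 1.95, 3.14 and 1.29 at E13.5, where it was 0.42. Its differences were 1.76 ± 0.14 (adjusted p = 1.01e-05) and 1.46 ± 0.16 (adjusted p = 5.7e-06), and it was higher than in each region at both stages. Lmx1a, which marks both roof plate and ventral midbrain floor plate, was lower at E13.5 (-2.80 ± 0.18), at 0.292, 0.333 and 0.175 RPKM. Its E12.5 call (-2.03 ± 0.68) was lost in 9 fits without a library, among them those without each of the 3 dorsal midbrain libraries (adjusted p 0.0518 to 0.152 over the 9). Rspo3 read 3.35, 4.22 and 7.15 at E12.5 and was not called, but was higher with voom (2.32, adjusted p = 0.027). Leaving out the 2 libraries that stand apart gave 1.47 (adjusted p = 4.69e-05). Rspo3 was higher at E13.5 (1.29 ± 0.19).

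In the BMP list, 2 of 30 were higher and 1 lower at E12.5, and 4 of 31 higher and 1 lower at E13.5, with medians of 0.34 and 0.29. The number higher at E12.5 was 6 with voom, which at E13.5 gave 2 lower, and was 4 without the 2 libraries that stand apart. The single lower calls lie near the share of all genes called lower (2.29% at E12.5 and 4.56% at E13.5). Id2, an inhibitor of differentiation and BMP target, differed by 1.28 ± 0.14 at E12.5 and 0.96 ± 0.14 at E13.5. Tgfb2, a ligand, was lower, with log2 differences of -1.67 ± 0.20 and -1.63 ± 0.13. In the FGF list, 2 of 19 were higher at both stages, 1 was lower at E12.5 and 2 at E13.5 (3 and 7 with voom), with medians of -0.40 and -0.47. Fgfr2, an FGF receptor, read 27.7, 23.5 and 25.1 RPKM at E12.5 against at most 10.8, and 19.7, 23.0 and 19.2 at E13.5 against at most 10.4. Its differences were 1.67 ± 0.11 (adjusted p = 2.39e-06) and 1.57 ± 0.13 (adjusted p = 5.92e-07), with no overlap. Fgf15, a ligand of the dorsal midbrain and forebrain, differed by 2.10 ± 0.47 and 2.59 ± 0.49. Etv5, which FGF signalling turns on, was lower, with log2 differences of -1.13 ± 0.28 (lost without the first or second library) and -1.48 ± 0.17.

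Genes of the cell cycle were the list with the most calls. At E12.5, 30 of 35 were higher and none lower, and at E13.5, 31 of 35, with median log2 differences of 1.39 and 1.66, and all 35 had a positive difference at both stages. The 35 genes summed to 1258, 2272 and 2437 RPKM in the dorsal midbrain at E12.5, in order of size, and to 1709 to 2115 at E13.5. The highest other library was at 1810 at E12.5 (alar plate) and 1116 at E13.5 (ventral forebrain). So the lowest dorsal midbrain library overlapped an alar plate library at E12.5, and the groups were apart at E13.5. At E12.5 only 4 of the 35 genes had all 3 dorsal midbrain libraries above the 12 others (5.63% of all genes tested did), and at E13.5, 34 of 35 did (17.5% of all genes). Ccnd1, cyclin D1, which drives entry into S phase and is a Wnt target, had the largest change. It read 295, 311 and 53.3 RPKM at E12.5 against 19.2 to 106, a difference of 2.17 ± 0.46 (adjusted p = 0.00467). At E13.5 it read 227, 304 and 251 against 14.8 to 84.9, a difference of 3.17 ± 0.24 (adjusted p = 3.04e-07). Mki67, the proliferation antigen, differed by 1.63 ± 0.37 and 2.09 ± 0.28, and Top2a, a topoisomerase of dividing cells, by 1.73 ± 0.38 and 2.24 ± 0.29. The E12.5 calls of Ccnd1, Mki67 and Top2a were lost without the first dorsal midbrain library (adjusted p = 0.0543, 0.0625 and 0.0603).

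A motif of E2F factors, which switch on S-phase genes, was searched after the cell-cycle values were seen (TTTGGCGC or TTTCCCGC, both strands). Searched over whole windows, which run on past the start site, it was in 1.56% of all promoter windows. Counted by gene symbol, with a match in any window of the gene, it was in 1.8% of all 27025 symbols. It was in 3.40% of the genes tested at both stages (332 of 9772). Of the genes higher at both stages 9.13% held it (23 of 252), and of those lower 1 of 202. In the cell-cycle list, 6 of 28 matched genes held it (21.4%): Cdk2, Mcm3, Mcm5, Mcm6, Mcm7 and Cdc6. Mcm6, a subunit of the replicative helicase, read 66.0, 60.9 and 34.5 RPKM at E12.5 against at most 48.6 (1.10 ± 0.25, lost without the first or second library) and 40.7, 52.6 and 48.3 at E13.5 against at most 30.8 (1.23 ± 0.18, adjusted p = 5.32e-05). E2f7, a repressing E2F factor outside the list, read 11.2, 10.3 and 4.12 at E12.5 against at most 3.63, and 6.94, 8.36 and 7.36 at E13.5 against at most 3.39. Its differences were 1.51 ± 0.26 (adjusted p = 0.00217) and 1.66 ± 0.17 (adjusted p = 3.12e-06). Both promoters, shown as examples and chosen after their values were seen, are printed with the matches in capitals. That of Mcm6 lies at chr1:128359706-128359955 on the minus strand, with matches starting 110 and 47 bases before the start site, and that of E2f7 at chr10:110745189-110745438 on the plus strand, with the match on the other strand, 198 bases before.
Mcm6: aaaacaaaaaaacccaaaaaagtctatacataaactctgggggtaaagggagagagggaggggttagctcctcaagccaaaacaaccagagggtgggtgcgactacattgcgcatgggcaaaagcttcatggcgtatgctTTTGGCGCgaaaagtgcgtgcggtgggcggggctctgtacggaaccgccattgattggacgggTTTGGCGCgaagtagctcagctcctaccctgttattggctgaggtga
E2f7: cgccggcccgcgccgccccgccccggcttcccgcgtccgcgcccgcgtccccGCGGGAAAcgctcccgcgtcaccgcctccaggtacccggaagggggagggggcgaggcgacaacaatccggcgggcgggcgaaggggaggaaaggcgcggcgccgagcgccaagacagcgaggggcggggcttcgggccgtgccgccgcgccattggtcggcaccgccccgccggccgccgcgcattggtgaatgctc

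Notch genes, which hold progenitors back from becoming neurons, were higher in 2 of 20 cases at E12.5 and 6 of 20 at E13.5, and none was lower. Hes5, the main Notch target of neural progenitors, read 153, 157 and 71.7 RPKM at E12.5 against 27.2 to 94.3, and 120, 150 and 147 at E13.5 against 23.8 to 59.0. Its differences were 1.33 ± 0.25 (adjusted p = 0.00261) and 1.87 ± 0.18 (adjusted p = 2.1e-06), and the groups overlapped at E12.5 through the third library. The ligands Dll1 and Jag1 differed by 1.04 ± 0.11 and 1.46 ± 0.13 at E13.5, and Dll1 fell just under the size threshold without any of 3 single libraries. The list of radial glia and progenitors was mixed, with 3 higher and 1 lower of 19 at E12.5, and 5 higher and 3 lower at E13.5. Without the 2 libraries that stand apart the E12.5 counts were 5 and 3. Sox3, a SoxB1 factor of progenitors, differed by 1.28 ± 0.20 and 1.58 ± 0.28. Slc1a3, a glutamate transporter of radial glia, was lower, with log2 differences of -1.46 ± 0.20 and -1.74 ± 0.20. Pax6 was lower at E13.5 (-2.25 ± 0.57), where the dorsal midbrain held 0.676, 0.258 and 0.229 RPKM. At E12.5 the third library held 46.7 and the difference was -0.17 ± 0.93, and without the 2 libraries that stand apart it was -1.40 (adjusted p = 0.00772).

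Genes of postmitotic neurons had negative medians, -0.55 and -0.60, but few calls: 1 of 30 higher and 3 lower at E12.5, and 1 higher and 4 lower at E13.5. At E12.5, 7 were lower without the 2 libraries that stand apart. Their sum was 3156 to 4266 RPKM in the dorsal midbrain at E12.5 and 3677 to 3891 at E13.5, while the lowest other library was at 4213 and 4626, so the groups touched at E12.5 and were apart at E13.5. Mapt, the axonal protein tau, read 58.2, 72.5 and 133 RPKM at E12.5 against 93.1 to 302, and 100, 81.5 and 91.8 at E13.5 against 181 to 355. Its differences were -1.28 ± 0.25 (adjusted p = 0.00362) and -1.45 ± 0.13 (adjusted p = 1.6e-06). Tubb3, the neuronal tubulin, differed by -0.08 ± 0.10 and -0.04 ± 0.08. Cntn2 (TAG-1), an adhesion protein of young commissural axons, was the higher member, at 124, 124 and 93.1 and then 129, 129 and 132 RPKM, with differences of 1.84 ± 0.28 and 2.15 ± 0.15.

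**Figure D5:**
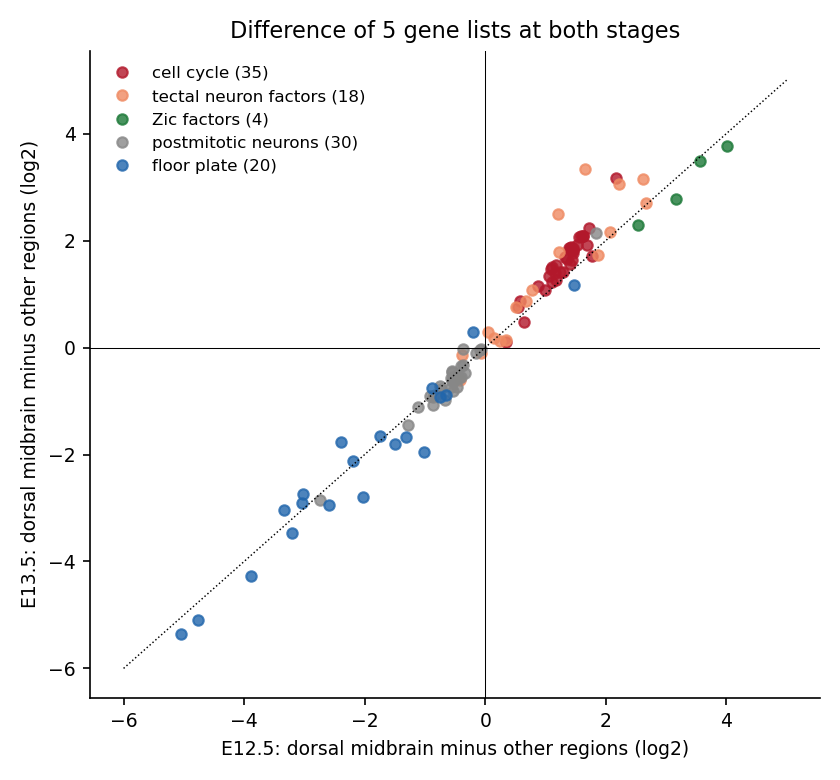
Log2 difference of each gene of 5 lists (cell cycle, tectal neuron factors, Zic, postmitotic neurons and floor plate) at E12.5 (horizontal axis) against that at E13.5 (vertical axis); points are genes, coloured by list, and the line marks equal differences. The cell-cycle genes lie above 0 on both axes, and Sulf1 and Spon1 of the floor plate list lie lowest.

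Axon guidance genes had more lower than higher calls. In the netrin, Slit and semaphorin list, 2 of 35 were higher and 7 lower at E12.5, and 1 of 34 higher and 10 lower at E13.5. Ntn1, Spon1 and the Slit genes are also members of the floor plate list, so the counts of these lists overlap. Beside Ntn1 and Spon1, the lower genes included Nrp2, a semaphorin receptor (-1.81 ± 0.29 and -2.21 ± 0.18), and Unc5a, a netrin receptor (-1.21 ± 0.21 and -1.71 ± 0.11). Draxin, a secreted repellent of commissural axons, was higher by 1.28 ± 0.18 and 1.46 ± 0.15, at 79.9, 82.0 and 60.0 and then 76.5, 89.7 and 82.6 RPKM, above every other library. Robo3, which lets axons cross the midline, read 15, 5.99 and 11.3 at E12.5 and was not called (-0.85 ± 0.53). It read 0.965, 2.72 and 2.92 at E13.5 and was lower (-2.85 ± 0.28, adjusted p = 2.45e-06). The difference between the stages for Robo3, -2.0 ± 0.63, did not pass its own test (adjusted p = 1). Of ephrins and Eph receptors, which map retinal axons onto the tectum, 3 of 21 were higher and 1 lower at E12.5, and 5 higher and 1 lower at E13.5. At E12.5, 5 were higher without the 2 libraries that stand apart. Efna2, an ephrin ligand, differed by 1.23 ± 0.26 (lost without the first or second library) and 1.91 ± 0.15, and Efna5 by 1.44 ± 0.26 at E13.5. Epha2 read 17.2, 17.9 and 3.58 RPKM at E12.5 and 15.1, 15.4 and 15.2 at E13.5, with differences of 2.16 ± 0.32 and 2.86 ± 0.22. Epha3 was the lower member (-1.46 ± 0.43, lost without the first or second library, and -2.57 ± 0.21).

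Planar polarity Wnt genes numbered 2 higher and 2 lower of 24 at E12.5 (4 lower with voom), and 1 higher and 4 lower at E13.5. Wnt5a, a ligand of this branch and highest in the ventral midbrain, was lower, with log2 differences of -1.5 ± 0.28 and -1.80 ± 0.20, and Wnt9a was higher by 1.69 ± 0.13 and 1.15 ± 0.13 (0.99 without the fifth dorsal midbrain library). Of the retinoic acid list, 1 of 12 was higher at E12.5, and 2 of 14 were higher and 1 lower at E13.5; without the 2 libraries that stand apart 3 were higher at E12.5. Crabp1, a carrier of retinoic acid in the cell, differed by 2.58 ± 0.35 and 2.47 ± 0.49, at 97.3, 93.5 and 41.9 and then 32.9, 70.9 and 75.2 RPKM.

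Lists of neighbouring territories were used to ask what else the dissected piece held. Forebrain genes were lower in 3 of 15 cases at E12.5 and in 6 of 18 at E13.5, with 1 higher (Emx2, 1.15 ± 0.16). With voom none was lower and 1 higher at E12.5, and 3 were lower at E13.5. Otp, a homeodomain factor of hypothalamus and hindbrain, differed by -2.07 ± 0.34 and -3.82 ± 0.23. No hindbrain gene was called by limma, of 4 and 7 tested, and none by voom. With limma 1 and 3 had an unadjusted p under 0.05. An adjusted p under 0.05 was found for 1 and 2, which stayed under the size threshold. The tested ones differed by -0.99 to -0.34 at E12.5 and by -1.67 to -0.64 at E13.5. The rest of the 16 members, most of the Hox genes among them, averaged under 1 RPKM in every region, the ventral hindbrain included. The list therefore says little about hindbrain tissue in the piece. For cerebellum and isthmus, 2 of 10 were higher at E12.5, and 3 higher and 3 lower at E13.5; without the 2 libraries that stand apart 1 was higher and 1 lower at E12.5. For pretectum and thalamus, 5 of 14 were higher and 1 lower (Nkx2-2) at both stages. The 5 higher genes were Shox2, Lhx2, Lhx9, Sox14 and Barhl2, of which 3 are also in the tectal list. The Sox14 call at E12.5 (1.22 ± 0.42) was lost in 9 fits without a library, among them those without each of the 3 dorsal midbrain libraries (adjusted p 0.0524 to 0.205 over the 9). Its E13.5 call was lost without the fourth dorsal midbrain library (adjusted p = 0.0547). Gbx2, Pax6 and Tcf7l2, high in the third E12.5 library, were not called higher, and their part in the E12.5 results was not tested beyond leaving that library out.

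Other tissues in the pieces were read from marker lists. Meningeal and mesenchymal genes were higher in 10 of 17 cases at E12.5 and in 4 of 18 at E13.5 (7 with voom). Summed without Zic1 over 18 genes, they were at 121 to 251 RPKM in the dorsal midbrain at E12.5, 102 to 311 in the alar plate and 26.5 to 133 in the 3 ventral groups. At E13.5 they were at 141 to 175 in the dorsal midbrain, 30.4 to 261 in the alar plate and 23.3 to 397 in the ventral groups. Their part in the other results was not tested. None of 16 vessel genes, of the microglia genes (9 and 11 tested) or of 9 red blood cell genes was called at either stage, and neither was any of the neural crest, cartilage, muscle and skin list (2 and 7 tested). With limma, unadjusted p-values under 0.05 were found for 7 and 6 vessel genes and 1 and 3 microglia genes. They were found for 2 and 0 red blood cell genes and 1 and 2 of the last list. Adjusted p-values were under 0.05 for 5 and 6 vessel genes, 1 and 2 microglia genes, and 1 and 0 red blood cell genes. The same held for 1 and 2 genes of the last list, and all of these stayed under the size threshold. With voom 1 gene in all was called, lower, of the last list at E13.5. In the choroid plexus list the single call was Otx2, and voom also called 1 member lower at each stage. Without Otx2 the list summed to 2.25 to 3.75 RPKM in the dorsal midbrain at E12.5 and to at most 102 (median 3.06) in the alar plate. It summed to 16.2 to 19.4 in the ventral midbrain. At E13.5 the sums were 2.08 to 2.5 in the dorsal and 12.9 to 15.4 in the ventral midbrain.

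The naming rule gave 9 further genes that were lower at both stages. Scg2, secretogranin II of secretory granules, read 2.67, 2.07 and 2.75 RPKM at E12.5 against 3.93 to 70.2 and 3.18, 2.33 and 2.22 at E13.5 against 5.83 to 68.4. Its differences were -2.74 ± 0.28 (adjusted p = 6.82e-05) and -2.85 ± 0.14 (adjusted p = 1.55e-08). Kcnip1, a subunit that tunes potassium channels, differed by -2.06 ± 0.23 and -2.62 ± 0.10, and Rph3a, a synaptic vesicle protein, by -2.01 ± 0.24 and -2.37 ± 0.14. C1ql1, a secreted C1q-like protein, differed by -2.65 ± 0.57 and -2.90 ± 0.20. Fxyd7, a regulator of the sodium pump, differed by -2.38 ± 0.38 and -2.83 ± 0.17, Ecel1 by -2.34 ± 0.30 and -2.75 ± 0.33, and Pdzrn4 by -2.19 ± 0.20 and -2.01 ± 0.15. Pdlim3 (-2.42 ± 0.34 and -2.51 ± 0.17) and Mt3, a brain metallothionein (-1.99 ± 0.32 and -2.44 ± 0.21), complete the named set. For each of these 9 genes the 3 dorsal midbrain libraries were below all 12 others at both stages, as they were for 2.44% of all genes tested at E12.5 and 16.1% at E13.5, and the rule for naming them required this.

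Taking the regions singly, the alar plate had the fewest calls with all libraries in. At E12.5, 81 genes were called in either direction between the dorsal midbrain and the alar plate (0.59% of those tested, 60 higher and 21 lower), against 1161 with the ventral midbrain (8.45%), 987 with the ventral forebrain (7.19%) and 1362 with the ventral hindbrain (9.92%). At E13.5 the counts were 771 with the alar plate (5.57%), 1449 with the ventral midbrain (10.5%), 897 with the ventral forebrain (6.48%) and 1700 with the ventral hindbrain (12.3%). These comparisons share the dorsal midbrain libraries. The 81 also rested on the 2 libraries that stand apart, 1 of the dorsal midbrain and 1 of the alar plate. Without them 214 genes were higher and 143 lower than in each of the 4 regions at E12.5. At least as many were therefore called against the alar plate alone in that fit. Genes higher than in each of the 4 regions numbered 26 at E12.5 (0.189%) and 205 at E13.5 (1.48%), and 18 were on both lists, 69.2% and 8.78% of them. They included Axin2, Fzd10, Gas1, Gdf7, Dmbx1, Fgfr2 and Wnt2b, a Wnt ligand at 4.69, 5.37 and 5.86 and then 3.61, 5.80 and 3.18 RPKM. Genes lower than in each region numbered 6 (0.0437%) and 203 (1.47%), with 4 shared. Nkx2-2 and Glra2, a glycine receptor subunit (-1.82 ± 0.19 and -2.06 ± 0.14), were among the shared ones. At E12.5 these counts rose to 214 and 143 without the 2 libraries that stand apart. Single libraries of several regions moved the E12.5 counts: they were 15 and 3 without the first dorsal midbrain library, 12 and 3 without the second and 97 and 73 without the third. They were 49 and 7 without the first and 39 and 11 without the third alar plate library, 45 and 20 without the first ventral forebrain library, and 17 higher without the third ventral hindbrain library. Only 3 were lower without any 1 library of the ventral midbrain or ventral hindbrain.

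Whether the dorsal midbrain contrast itself differed between E12.5 and E13.5 was tested as an interaction over the 30 libraries. No gene of 13994 was called by limma (0.0%), with a smallest adjusted p of 0.917, and 564 (4.03%) had an unadjusted p under 0.05. With limma's voom on the recovered reads none was called and 515 had an unadjusted p under 0.05. A gene called at only 1 stage is therefore not shown to differ between the stages. Pou4f1 had a difference of 1.68 ± 0.60 and Otx2 of 0.99 ± 0.37 between the stages, each with an adjusted p of 1.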

How the data were processed

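RNA was extracted with RNeasy kits and sequenced as TruSeq libraries, per the labels' protocols. The authors mapped reads with Bowtie to mm10, per the submitters' processing notes, and deposited RPKM for 24378 features. For the counter, the annotation release and strand use, nothing is stated in the sources used here. Each value times its listed transcript length was a whole multiple of what 1 read is worth (100.0% of values within 0.001), so whole reads were recovered for the depth and for an alternative test.

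Genes with a group mean of at least 1 RPKM were kept, and log2(RPKM + 1) was fitted with limma 3.58.1 (limma-trend, R 4.3.3) over the 15 libraries of a stage. A call needed an adjusted p under 0.05 and a log2 difference of at least 1. The scripts were tested on simulated data. The alternatives were a pseudocount of 0.1, a minimum of 5 RPKM or none, median-of-ratios scaling, limma's voom on the recovered reads, robust empirical Bayes, a replicate block, 1 fit of the 30 libraries, and leaving out each library.

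The members and the 33 gene lists (544 distinct genes) were chosen with earlier results of these data known. The lists hold 608 entries, so some genes are counted in several lists and those counts are not independent. The text names the 4 markers, up to 15 genes per direction, up to 4 members of each list with the smallest adjusted p at E13.5, and others needed for a description. The 15 per direction were called at both stages, averaged at least 5 RPKM, had their 3 dorsal midbrain libraries beyond the 12 others (73 genes higher and 39 lower) and ranked first by the smaller of their 2 changes; names of predicted genes were passed over. Promoters are from RefSeq (GRCm38.p6), matched by symbol. A few genes are not reported here and were left out of the lists.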

Additional observations from a re-analysis of the deposited data

How the results depend on the processing

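The number of genes called depended on the scale and, at E12.5, on single libraries. With a pseudocount of 0.1 the E12.5 counts were 659 higher and 656 lower (406 and 315 as reported), and 1156 genes were lower at E13.5 (631 as reported). With voom on the recovered reads they were 662 and 677 at E12.5 and 730 and 1228 at E13.5. Without the 2 E12.5 libraries that stand apart they were 640 and 583. Leaving out 1 library gave 199 to 619 higher and 190 to 531 lower at E12.5, and 432 to 513 and 573 to 669 at E13.5.

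Genes beyond each of the 4 regions at E12.5 (26 higher and 6 lower) numbered 16 higher with a minimum of 5 RPKM, 3 lower with no filter, 10 lower with a pseudocount of 0.1 and 11 lower with voom. They numbered 53 and 28 in 1 fit of the 30 libraries, and 214 and 143 without the 2 libraries that stand apart. Leaving out 1 library gave 12 to 97 higher and 3 to 73 lower. At E13.5 (205 and 203) voom gave 345 and 548, a pseudocount of 0.1 gave 503 lower, and leaving out 1 library gave 149 to 269 and 169 to 239. The difference between the stages gave 0 more positive and 0 to 1 more negative genes when 1 library was left out.

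The labels give regions the same replicate numbers. With the replicate block, 44 genes were higher and 15 lower than each region at E12.5, 205 and 204 at E13.5, and the counts against the mean of the regions were unchanged. Same-numbered libraries had a mean correlation of deviations of 0.136 at E12.5 (over 0.1 in 18 of 30 pairs) and 0.169 at E13.5 (21 of 30), against -0.069 (17 of 60) and -0.085 (6 of 60) for libraries of different number. Same-numbered libraries thus deviated together on average but not in every pair, and the labels give the number no meaning, so the fit without the block was kept.

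Of 286 values for the 143 genes named (244 called), none that was called in the main fit or in an alternative changed sign between them. Sign changes of values called in neither fit were not counted. The 1 fit of the 30 libraries was not compared gene by gene. Of 132 counts of list members, voom moved 27 by over 1.5 times and no filter 3, and leaving out the 2 libraries moved 13 of 66. The causes of these changes were not tested. Low values limit the precision: 1 read sets the smallest step, and values under 3 reads are near the floor.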

Other observations

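Several groups of genes outside the lists also differed, and they are given here as values chosen after they were seen. Dlk1 and Meg3, imprinted genes of the same chromosomal cluster, were both lower in the dorsal midbrain. Dlk1 read 2.12, 2.20 and 9.34 RPKM at E12.5 and 3.76, 2.15 and 2.87 at E13.5, with log2 differences of -2.77 ± 0.39 and -3.53 ± 0.19. Meg3, a long non-coding RNA, read 16.5, 18.4 and 42.4 and then 25, 17.1 and 25.4, with differences of -1.57 ± 0.22 and -2.23 ± 0.16. In both genes the third E12.5 library held the highest dorsal midbrain value.

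Another 4 genes, each known from glial cells, were lower and were picked after their values were seen. No list of astrocyte or oligodendrocyte genes was counted. The list of radial glia and progenitors, counted above, was mixed. Of its 19 genes 3 were higher and 1 lower at E12.5, and 5 higher and 3 lower at E13.5. Aldh1l1, a folate enzyme of astrocytes, differed by -2.45 ± 0.51 at E12.5 and -2.38 ± 0.12 at E13.5. Aldoc, an aldolase of glia, differed by -1.65 ± 0.40 and -3.17 ± 0.28, and Bcan, the matrix protein brevican, by -1.47 ± 0.37 and -2.84 ± 0.15. Olig1, a factor of ventral progenitors and oligodendrocytes, differed by -1.44 ± 0.43 and -2.79 ± 0.27. The E12.5 calls of Aldoc, Bcan and Olig1 were lost without the first or the second dorsal midbrain library, and that of Olig1 also without the third. With voom the E12.5 calls of Aldoc and Bcan were lost (adjusted p = 0.0595 and 0.051).

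Further transcription factors were higher at both stages. Tfap2e, an AP-2 factor, differed by 2.25 ± 0.35 and 3.11 ± 0.24, and Prdm12 by 2.24 ± 0.34 and 2.61 ± 0.50. Dbx1, a homeobox factor of progenitors, differed by 2.65 ± 0.27 and 2.51 ± 0.37, and Foxn4, a forkhead factor that promotes interneuron fates, by 1.59 ± 0.36 and 2.13 ± 0.32. The Foxn4 call at E12.5 was lost without the first or the second dorsal midbrain library. Uhrf1, which maintains DNA methylation through replication, differed by 1.82 ± 0.35 and 2.19 ± 0.29. Lrp4, a receptor that modulates Wnt signals, differed by 2.0 ± 0.35 and 1.93 ± 0.14, and Hsd11b2, which inactivates glucocorticoids, by 1.63 ± 0.29 and 2.40 ± 0.26.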
